A study of Homo sapiens with 16 samples.

Results

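WNT ligands and the receptors that bind them were followed through a differentiation toward endoderm of H9, an established line of human embryonic stem cells. The set held 34 genes, chosen by symbol from the 18495 rows of the deposited array table: 19 WNT genes, 10 Frizzled genes, the co-receptor genes LRP5 and LRP6, and the receptor genes ROR1, ROR2 and RYK. A gene with several rows was represented by the row with the highest mean. The rows chosen for FZD4 and LRP5 list a second symbol each, so these 2 rows were counted without being read as either gene, and FZD4 is described from a dimmer row of its own.

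RNA was measured on exon arrays, which read transcripts with probes placed along their exons, in 14 biological samples. Day 0 (n = 4) was undifferentiated H9 cells kept on mouse feeder layers or on Matrigel in medium conditioned by feeders, with 8 ng/ml of basic FGF. Days 1 (n = 3), 3 (n = 3) and 5 (n = 4) were cells moved into RPMI with activin A at 100 ng/ml, a ligand of the nodal pathway, and with serum raised stepwise. Medium, serum, basic FGF, activin and time changed together, so their effects cannot be told apart. All samples came from this 1 cell line, and nothing in the labels says that replicates were separate cultures, so p-values measure only the spread between these samples.

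WNT proteins are secreted, lipid-bearing signals that bind the cysteine-rich domain of Frizzled receptors. With LRP5 or LRP6 as co-receptor, binding protects beta-catenin from degradation, and beta-catenin with TCF/LEF factors then switches on target genes. ROR1, ROR2 and RYK are single-pass receptors tied mostly to beta-catenin-independent branches that steer cell shape and movement. In the mouse embryo Wnt3 is needed to form the primitive streak, the transient structure from which mesoderm and endoderm leave the epiblast.

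The labels of most samples matched their markers. At day 5 the 5 endoderm markers SOX17, FOXA2, CXCR4, GATA6 and CER1 were all past the test (higher), with summed intensities of 38561 to 51263 at day 5 and 2292 to 6929 at day 0, and 3 of the 6 measured stem cell markers were lower. The library labelled day 3 replicate 2 went against its label on streak and endoderm markers. Its 4 streak markers summed to 350 and its endoderm markers to 3488, where other day 3 samples reached 13996 and 39417. Its 6 measured stem cell markers were mixed. They summed to 26428, below the day 0 range of 36891 to 45249. PRDM14, DNMT3B, LIN28A and THY1 lay below every day 0 sample, and DPPA4 and ZFP42 lay above. The median correlation of this library with its own group was 0.83. That of day 5 replicate 2 was 0.86, and the remaining samples lay between 0.90 and 0.96. Both were kept, and for the WNT and receptor genes described singly, values without them are given where a call between days changes. Calls of the F test over all days also changed for some of these genes, and are given without these samples only as counts. Among markers of other cell types, PAX6 (neural, by 4.34), LUM (mesenchymal, by 4.57) and GATA3 (trophoblast, by 2.06) were past the test (higher) at day 5 and KDR (vascular, by −1.23) was past it (lower), as log2 differences from day 0. Of the 17 such markers measured these 4 passed, and SOX1, ZIC1, DCN, PECAM1, CGA and TFAP2A averaged under 5.83, the log2 level below which the dimmest 25% of rows lie, at both days. The 6 mesenchymal markers summed to 1624 to 5634 at day 5 and 2104 to 5603 at day 0. Neural markers summed to 372 to 1041 at day 5 and 140 to 189 at day 0. For trophoblast markers the sums were 358 to 897 and 204 to 412, and for vascular markers 519 to 966 and 1601 to 1905. The part of other cells in the results below was not tested. In bulk RNA, fewer cells of a type and less RNA per cell cannot be told apart.

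Few of the 34 genes passed the test with all samples, and a gene that did not pass is not thereby shown to be unchanged. In limma with Benjamini-Hochberg adjustment over all 18495 rows, 0 of 34 passed an adjusted p of 0.05 at day 1 against day 0, where 0.00541% of all rows did, and 5 members had an unadjusted p under 0.05 (14.7%, beside 6.03% of rows). At day 3 the count was again 0, beside 0.027% of rows, with 5 at an unadjusted p under 0.05 (14.7%, beside 8.56% of rows). At day 5 there were 2 past the test, ROR2 (higher) and ROR1 (lower). This was 5.88% of the members beside 5.46% of all rows, so the share of WNT genes called at the adjusted threshold was near the background. At an unadjusted p under 0.05 there were 7 members (20.6%, beside 17.2% of rows). Day 5 against day 1 gave 0 (3.33% of rows), with 7 members at an unadjusted p under 0.05 (20.6%, beside 14.5% of rows). The row of FZD4 alone, which passed at day 5 against day 0 and against day 1, is not among these counts. With rows of 1 symbol in their place, 3 members passed at day 5 and 1 at day 5 against day 1. A moderated F test over days 1, 3 and 5 against day 0 called 1 member, ROR2 (3.73% of rows). In it 10 members had an unadjusted p under 0.05 (29.4%, beside 14.7% of rows).

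Those counts turned on the samples described above. A library outside the days compared enters a contrast only through the spread that all groups share. Leaving out replicate 2 of both day 3 and day 5 was chosen after the data were seen. Without the library labelled day 3 replicate 2, 0 members passed at day 1 (0.249% of rows), 1 at day 3 (3.19% of rows), 4 at day 5 (8.73%), 2 at day 5 against day 1 (6.11%) and 3 in the F test (8.2%). Without day 5 replicate 2 as well, the counts were 1 at day 1 (0.66%), 7 at day 3 (5.72%), 6 at day 5 (9.92%), 4 at day 5 against day 1 (8.13%) and 7 in the F test (11.5%). The median change at day 5 was 0.30 on the log2 scale for the 19 ligands, 0.07 for the 10 Frizzled rows and −0.02 for all rows.

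**Figure D1:**
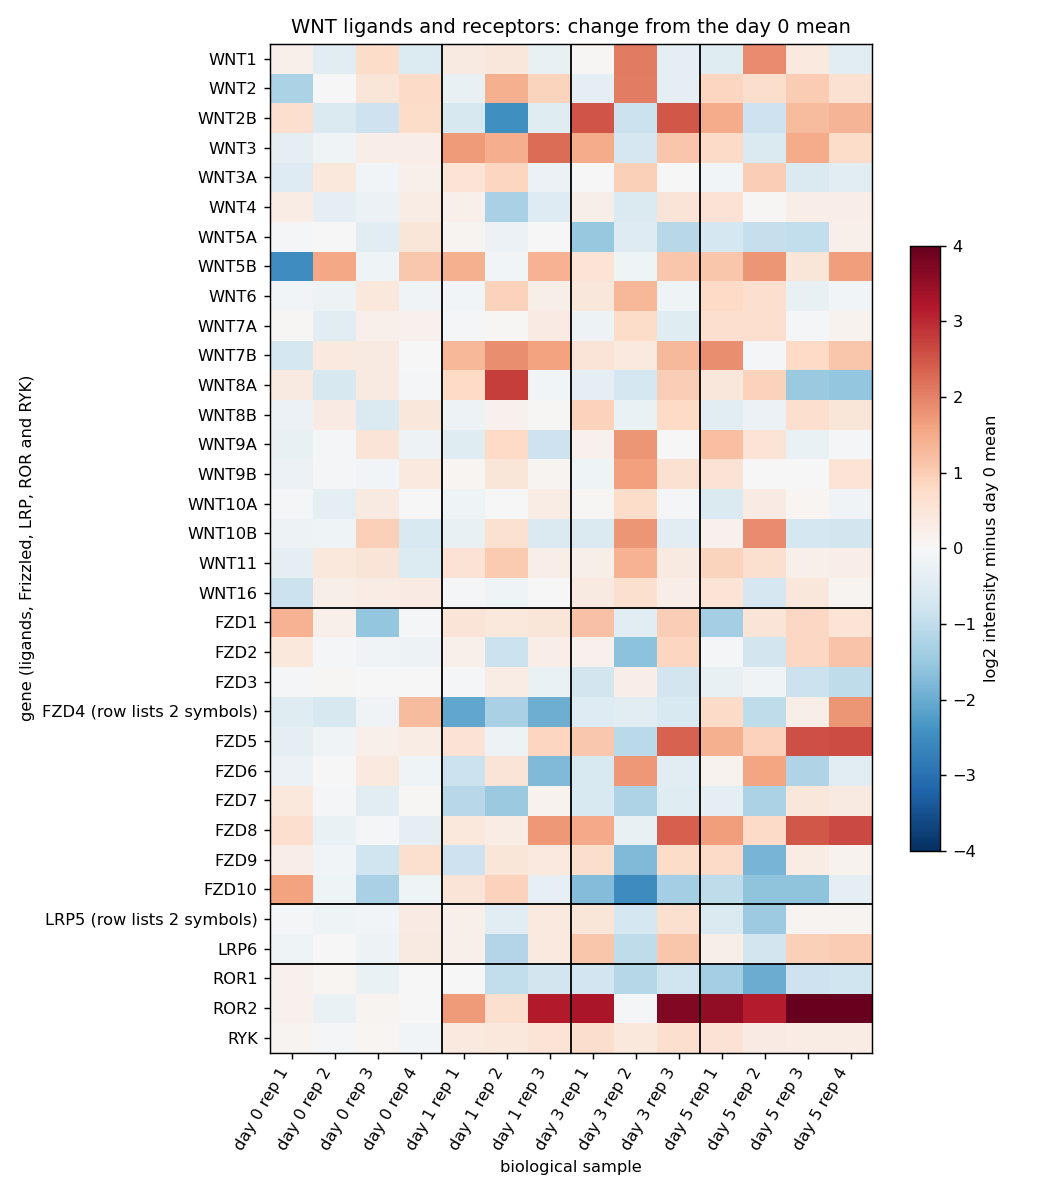
Each row is 1 gene and each column 1 biological sample, coloured by log2 intensity minus the gene's day 0 mean, with the scale ending at 4 in both directions. ROR2 is the darkest row through day 5, FZD5 and FZD8 darken at days 3 and 5 except in the library labelled day 3 replicate 2, and that library is high across many ligands.

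ROR2, a receptor tyrosine kinase-like protein that binds WNT5A and drives planar polarity and cell movement, had the largest change of the set. Its log2 intensity was 7.36, 6.90, 7.28 and 7.15 in the day 0 samples and 8.89, 7.81 and 10.36 at day 1. At day 3 it was 10.43, 7.11 and 10.89, and at day 5 it was 10.72, 10.30, 11.57 and 11.65. Every day 1 and day 5 sample lay above every day 0 sample, and at day 3 the library labelled replicate 2 sat among the day 0 values. The mean was 11.06 ± 0.66 at day 5 and 7.17 ± 0.20 at day 0 (SD, n = 4 each). ROR2 rose by 3.89 ± 0.73 at day 5 (log2 change ± SE, 14.8-fold, limma adjusted p 0.00764). The call held in each of the 20 alternatives run for it, with adjusted p from 0.000288 to 0.029. The F test's call for ROR2 (adjusted p 0.0405) was less firm: it was lost without any 1 of day 0 replicates 1 to 4, day 1 replicate 1, day 3 replicate 1, or day 5 replicates 1, 3 and 4, when the count over any day was 0.

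Earlier differences in ROR2 did not pass with all samples. They were 1.84 ± 0.79 at day 1 (limma adjusted p 0.76) and 2.30 ± 0.79 at day 3 (0.353). Without the library labelled day 3 replicate 2, ROR2 was 3.48 higher at day 3 than at day 0 (limma adjusted p 0.00604) and 2.04 higher at day 5 than at day 1 (0.0337, against 0.227 with it).

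ROR1, the other member of the ROR pair and also a WNT5A receptor, moved the opposite way. The day 0 samples stood at 11.59, 11.47, 11.13 and 11.42 and the day 1 samples at 11.42, 10.42 and 10.67. Day 3 gave 10.64, 10.26 and 10.59, and day 5 gave 10.05, 9.41, 10.58 and 10.60. All day 3 and day 5 samples were below all day 0 samples, while 1 day 1 sample lay within the day 0 range. ROR1 fell by 1.24 ± 0.30 at day 5, to 10.16 ± 0.56, against 11.40 ± 0.19 at day 0 (SD, n = 4 each, limma adjusted p 0.0273). That call was lost without any 1 of day 0 replicates 1 (limma adjusted p 0.0898), 2 (0.0796) and 4 (0.0719) or day 5 replicates 1 (0.079) and 2 (0.0606). At day 3 the difference was −0.90 ± 0.32 (limma adjusted p 0.375).

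RYK, a pseudokinase receptor that binds WNTs through a WIF domain, differed little but evenly. Its day 0 samples lay at 12.02, 11.87, 11.98 and 11.82. Day 1 gave 12.30, 12.34 and 12.47, day 3 gave 12.63, 12.33 and 12.61, and day 5 gave 12.51, 12.26, 12.21 and 12.22. No sample of days 1, 3 or 5 overlapped day 0. The differences of 0.45 ± 0.19, 0.60 ± 0.19 and 0.38 ± 0.18 did not pass (limma adjusted p 0.744, 0.311 and 0.291). Without replicate 2 of days 3 and 5, the day 3 difference was 0.70 and passed (0.0448). Groups that do not overlap were common: they held for 5 members at day 1 (11.5% of all rows), 6 at day 3 (9.82%), 6 at day 5 (14.6%) and 3 for day 5 against day 1 (16.1%).

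**Figure D2:**
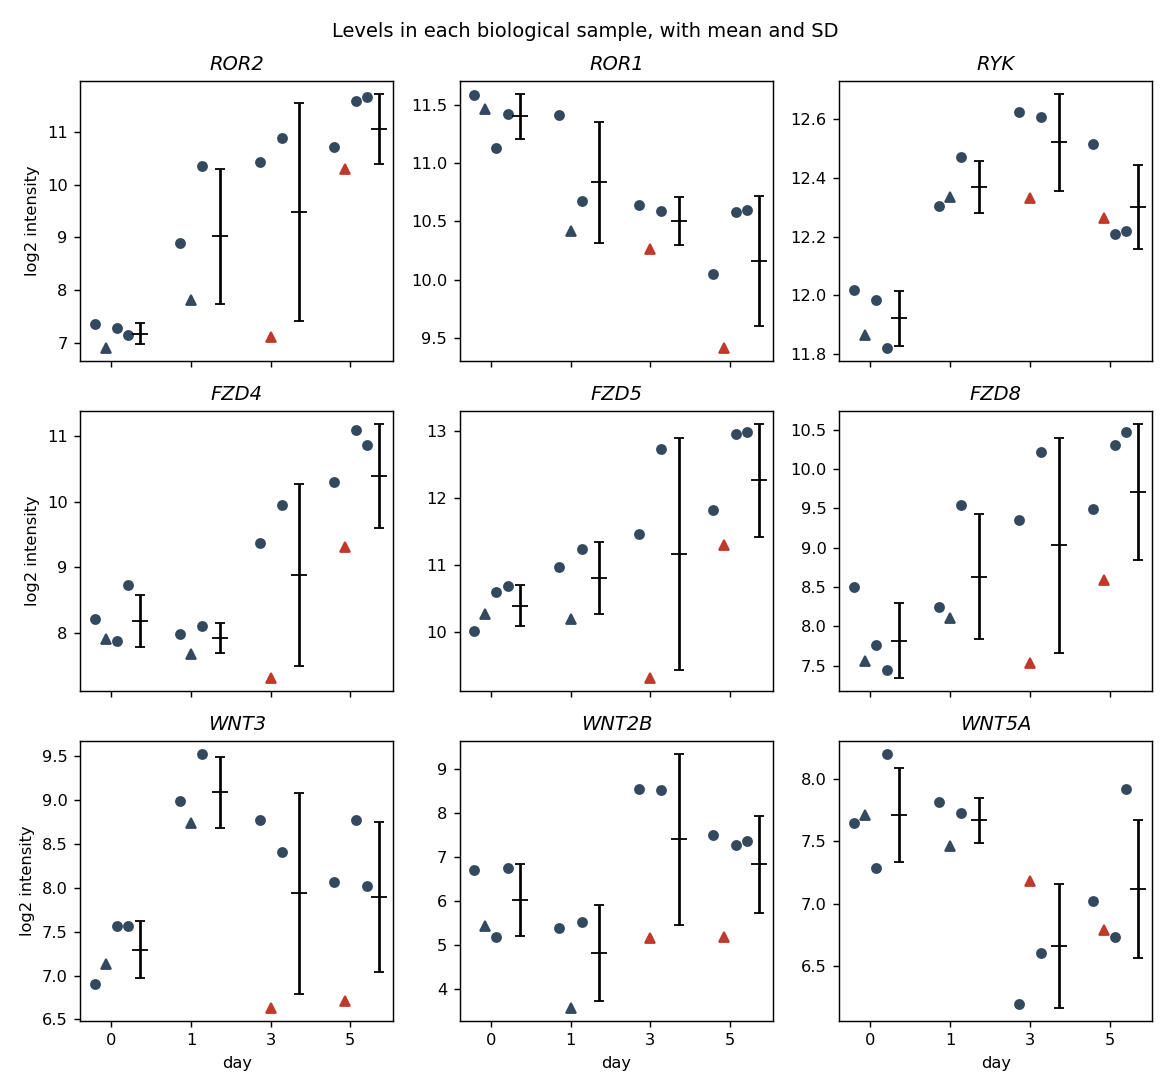
Each point is 1 biological sample on the log2 intensity scale, by day, with triangles for replicate 2 (red at days 3 and 5) and a bar for the mean with its SD. ROR2, FZD4, FZD5 and FZD8 are higher at day 5 than at day 0 in every sample, ROR1 is lower, and WNT3 is highest at day 1.

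Among the Frizzled receptors, FZD4, FZD5 and FZD8 lay higher in every day 5 sample than in any day 0 sample, and FZD4 passed the test. FZD4, which also serves Norrin in retinal vessels, was read on its own row at 8.21, 7.92, 7.88 and 8.72 at day 0 and 7.99, 7.68 and 8.11 at day 1. It was 9.37, 7.32 and 9.95 at day 3 and 10.30, 9.31, 11.09 and 10.86 at day 5. The day 5 samples lay above all samples of days 0 and 1. FZD4 rose by 2.21 ± 0.52 at day 5 against day 0 (4.62-fold, limma adjusted p 0.024) and by 2.46 ± 0.56 against day 1 (5.52-fold, 0.0289). The first call was lost without any 1 of day 0 replicates 1, 2 and 3 or day 5 replicates 1, 3 and 4 (limma adjusted p 0.0598 to 0.076). The second was lost without any day 1 sample or day 5 replicates 1, 3 or 4 (0.0677 to 0.116). At day 3 the difference of 0.70 did not pass (limma adjusted p 0.825), and it was 1.48 without replicate 2 of days 3 and 5 (0.0185). The brighter row that FZD4 shares with a second symbol differed otherwise, by −1.77 at day 1 (limma adjusted p 0.472) and 0.44 at day 5 (0.75), both against day 0. Its difference of day 5 from day 1, 2.21, did not pass with all samples (limma adjusted p 0.054) and did without the library labelled day 3 replicate 2 (0.0455). The values of the 2 rows are thus not interchangeable.

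FZD5 and FZD8 are close relatives that signal mainly through beta-catenin. FZD5 stood at 10.01, 10.26, 10.60 and 10.68 on day 0 and at 10.97, 10.20 and 11.24 after 1 day. After 3 days the values were 11.46, 9.31 and 12.74, and after 5 days 11.83, 11.30, 12.96 and 13.00. On this row the day 5 samples lay above every sample of days 0 and 1, by a small margin for day 1. The library labelled day 3 replicate 2 was the lowest sample. FZD5 averaged 12.27 ± 0.85 at day 5 and 10.39 ± 0.31 at day 0 (SD, n = 4 each), a difference of 1.88 ± 0.61 that did not pass with all samples (limma adjusted p 0.103). It passed without the library labelled day 3 replicate 2 (0.0156), which enters this contrast only through the shared spread. A second FZD5 row gave a difference of 2.13 ± 0.66 (limma adjusted p 0.0867, and 0.0143 without that library). On that second row days 5 and 1 overlapped, with the lowest day 5 sample at 10.57 and the highest day 1 sample at 10.77. Against day 1, the brighter row was 1.47 higher at day 5 (limma adjusted p 0.324), and 1.79 higher without replicate 2 of days 3 and 5 (0.0242). At days 1 and 3 it differed from day 0 by 0.41 ± 0.66 (0.999 or more after adjustment) and 0.78 ± 0.66 (0.842).

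FZD8, read on a row of its own, had a similar spread by day. Its samples were at 8.50, 7.57, 7.76 and 7.44 on day 0 and at 8.25, 8.10 and 9.55 after 1 day. After 3 days the values were 9.35, 7.53 and 10.21, and after 5 days 9.49, 8.58, 10.30 and 10.46. The lowest day 5 sample, replicate 2, was just above the highest day 0 sample. The mean was 9.71 ± 0.86 at day 5 and 7.82 ± 0.47 at day 0 (SD, n = 4 each), a difference of 1.89 ± 0.57 (limma adjusted p 0.0801). It passed without the library labelled day 3 replicate 2 (0.0225) or without day 5 replicate 2 (0.045). At day 3 the differences of FZD5 and FZD8 were 1.71 and 1.96 without the library labelled day 3 replicate 2 (limma adjusted p 0.114 and 0.0931), and both passed when day 5 replicate 2 was also left out (0.0494 and 0.0333), as did the second FZD5 row (0.0303, and 0.0315 for day 5 against day 1).

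**Figure D3:**
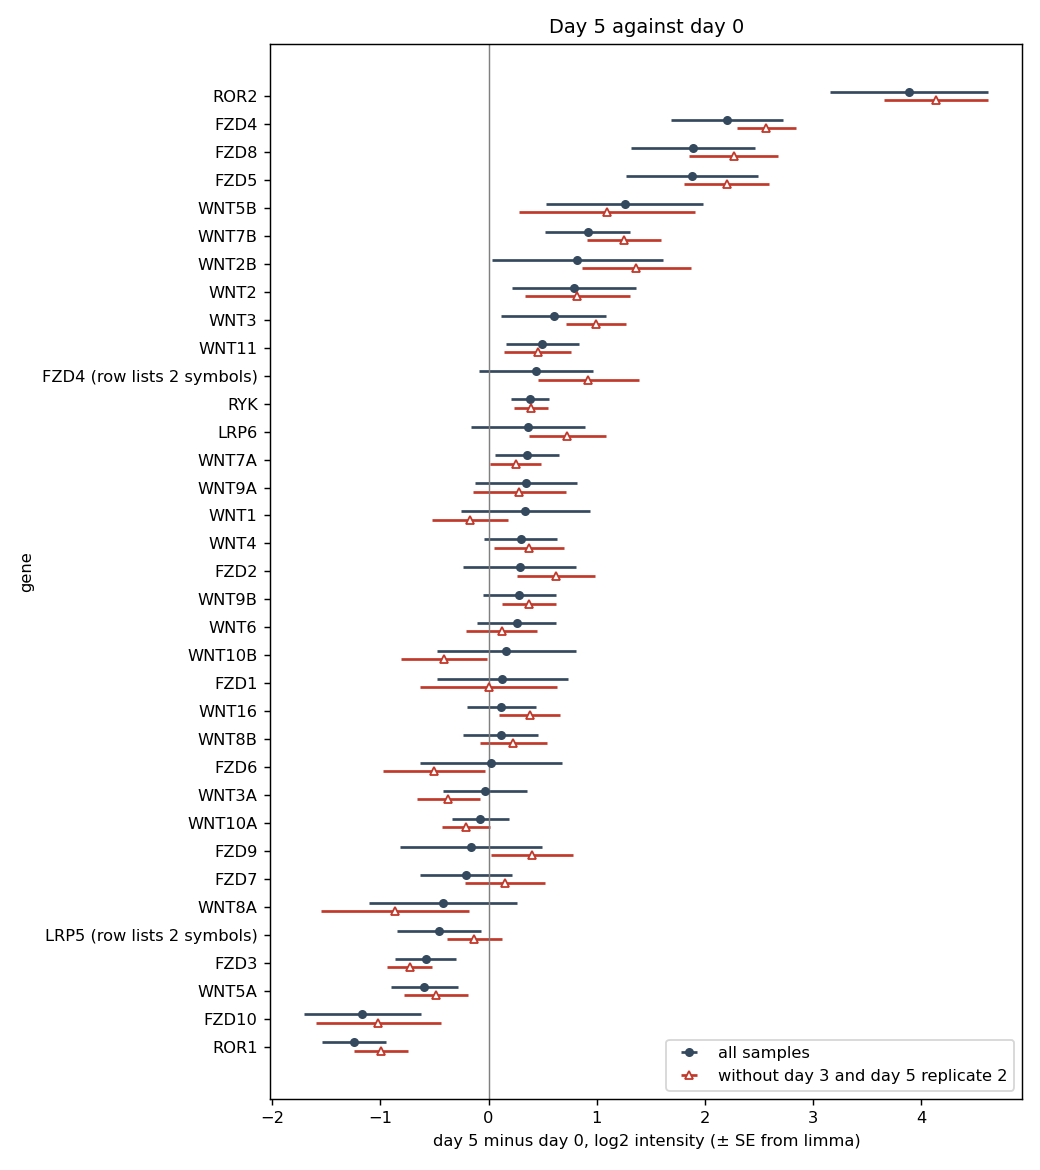
Points give the log2 difference of day 5 minus day 0 with its SE from limma for each gene, with all samples (filled) and without replicate 2 of days 3 and 5 (open). ROR2, FZD4, FZD8 and FZD5 stand at the top and ROR1 at the bottom in the fit of all samples.

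The other Frizzled receptors gave no call in any contrast. FZD10, a dim row, had the largest negative differences, of −1.87 ± 0.58 at day 3 (limma adjusted p 0.297) and −1.53 ± 0.58 at day 5 against day 1 (0.215). It lay at 4.73, 3.97 and 5.11 in the day 3 samples and at 8.10, 6.30, 5.19 and 6.32 at day 0. The day 0 samples spread widely, and the groups were separated only by a small margin. FZD7, a Frizzled known from undifferentiated human stem cells, was at 10.96, 10.34 and 11.07 at day 3 and at 11.98, 11.52, 11.14 and 11.63 at day 0, a difference of −0.78 ± 0.46 (limma adjusted p 0.72). Its day 5 samples, from 10.29 to 12.01, overlapped day 0. FZD3, known for axon guidance, was at 9.53, 9.69, 8.96 and 8.80 at day 5 and at 9.75, 9.87, 9.85 and 9.83 at day 0. The groups just miss each other, and the difference of −0.58 ± 0.28 did not pass (limma adjusted p 0.321). LRP6, the co-receptor, ranged from 9.53 to 11.27 at day 5 and from 10.08 to 10.63 at day 0 (difference 0.36 ± 0.53, limma adjusted p 0.799).

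Promoters of ROR2, FZD4, FZD5 and FZD8 are shown because these genes had the 4 largest positive differences at day 5, and that of WNT3 because its day 1 samples lay above day 0. The sequences are the 250 bases before the RefSeq start on GRCh38.p14, on the strand of the gene, which is the minus strand for all 5. They lie at chr9:91950229-91950478 (ROR2), chr11:86955396-86955645 (FZD4), chr2:207769907-207770156 (FZD5), chr10:35642297-35642546 (FZD8) and chr17:46818693-46818942 (WNT3). Capitals mark a CCAAT box read on the opposite strand (ATTGG) and a TATA box (TATAAA).
ROR2: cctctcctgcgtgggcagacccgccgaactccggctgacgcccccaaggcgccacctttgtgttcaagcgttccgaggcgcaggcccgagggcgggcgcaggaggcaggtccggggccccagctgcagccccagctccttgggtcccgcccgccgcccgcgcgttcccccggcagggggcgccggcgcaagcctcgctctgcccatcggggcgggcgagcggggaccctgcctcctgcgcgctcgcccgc
FZD4: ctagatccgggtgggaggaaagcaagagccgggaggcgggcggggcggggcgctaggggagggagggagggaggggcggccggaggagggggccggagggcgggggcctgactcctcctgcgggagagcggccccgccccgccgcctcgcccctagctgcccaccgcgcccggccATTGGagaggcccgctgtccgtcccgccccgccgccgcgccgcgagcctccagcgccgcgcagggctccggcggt
FZD5: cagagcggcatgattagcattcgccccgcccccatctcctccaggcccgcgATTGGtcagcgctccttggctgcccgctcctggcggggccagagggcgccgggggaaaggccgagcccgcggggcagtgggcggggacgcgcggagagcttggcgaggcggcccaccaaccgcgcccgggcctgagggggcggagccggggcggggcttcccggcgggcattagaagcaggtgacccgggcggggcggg
FZD8: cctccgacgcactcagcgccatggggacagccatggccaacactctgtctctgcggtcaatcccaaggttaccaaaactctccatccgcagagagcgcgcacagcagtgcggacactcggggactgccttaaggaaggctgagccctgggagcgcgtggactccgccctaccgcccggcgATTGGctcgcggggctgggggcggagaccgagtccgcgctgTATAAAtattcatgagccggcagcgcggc
WNT3: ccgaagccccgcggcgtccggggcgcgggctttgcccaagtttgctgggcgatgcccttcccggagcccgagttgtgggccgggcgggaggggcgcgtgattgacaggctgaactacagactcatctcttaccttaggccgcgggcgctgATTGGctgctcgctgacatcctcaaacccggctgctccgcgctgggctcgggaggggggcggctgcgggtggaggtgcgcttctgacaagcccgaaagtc
The CCAAT box began 75 bases before the start in FZD4, 199 in FZD5, 70 in FZD8 and 100 in WNT3, and FZD8 had a TATA box beginning at 29. ROR2 had neither. Of the 34 members 25 matched a RefSeq promoter entry, and 11 of these held CCAAT on either strand, against 32.0% of 35116 promoters searched over the same 250 bases before the start. The 25 members have 28 entries. Here and below, a member counts if any of its entries holds the motif, while the share over all promoters is per entry. TATAAA was in 2 of 25 and in 10.7% of all promoters. Those motifs were looked for after the sequences had been read. Of the factors of this differentiation, the TCF/LEF core CTTTGAT was in 0 of 25 member promoters (2.26% of all), the T-box half-site GGTGTGA in WNT5A alone (2.76%), the forkhead core TGTTTAC in WNT5B alone (2.98%), the GATA core AGATAA in WNT8B alone (9.17%) and the SMAD box CAGACA in RYK, WNT3A and WNT8B (13.6%), on both strands. The member promoters were rich in G and C, with a median of 73.2% against 58.0% over all promoters. These are matches of letters and say nothing about binding.

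Among the ligands, WNT3 had its highest mean at day 1. It stood at 6.91, 7.14, 7.56 and 7.56 on day 0 and at 8.99, 8.74 and 9.53 after 1 day. After 3 days the values were 8.77, 6.63 and 8.41, and after 5 days 8.07, 6.72, 8.78 and 8.02. Each of the 3 day 1 samples exceeded each of the 4 day 0 samples, and the libraries numbered replicate 2 at days 3 and 5 were the lowest 2 of the 14. The mean was 9.09 ± 0.40 at day 1 (SD, n = 3) and 7.29 ± 0.33 at day 0 (SD, n = 4). The difference of 1.79 ± 0.52 (3.47-fold) did not pass with all samples (limma adjusted p 0.365) or without the library labelled day 3 replicate 2 (0.119). It passed without that library and day 5 replicate 2 together (0.02), but these 2 samples enter this contrast only through the shared spread. The day 1 difference itself stayed at 1.79, with an SE of 0.27. At days 3 and 5 the differences with all samples were 0.64 and 0.60 and did not pass (limma adjusted p 0.832 and 0.613). Without replicate 2 of days 3 and 5 they were 1.30 (0.034) and 0.99 (0.0428). Leaving out these 2 samples, the lowest 2 for WNT3, was chosen after the data were seen and raises both differences. WNT9B, the next coding gene on chromosome 17, differed by 0.22 ± 0.36 at day 1 (limma adjusted p 0.999 or more). Day 5 minus day 1, the WNT3 difference was −1.19 ± 0.52 (limma adjusted p 0.309).

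WNT7B was the other ligand whose groups did not overlap at day 1. It lay at 5.07, 5.63 and 5.36 at day 1 and at 3.04, 4.14, 4.12 and 3.73 at day 0, and its mean over all samples was within the dimmest 25% of rows. The difference was 1.60 ± 0.43 (limma adjusted p 0.293). Of the 2 pairs of technical arrays, the widest gap of any member was that of WNT7B in day 5 replicate 4, which was 2.74 on the log2 scale. The median gap over the rows listing members was 0.22 in that pair. At day 3 it was at 4.26, 4.16 and 5.05, a difference of 0.73 ± 0.43 from day 0 (limma adjusted p 0.71). At day 5 it was at 5.63, 3.66, 4.55 and 4.86, a difference of 0.92 ± 0.39 (limma adjusted p 0.248) that was 1.25 without replicate 2 of days 3 and 5 (0.0419).

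WNT5A, the classic ligand of ROR2 and the non-canonical branch, gave no call with all samples. It was at 7.65, 7.71, 7.28 and 8.20 on day 0 and at 7.81, 7.46 and 7.73 after 1 day. After 3 days the values were 6.20, 7.18 and 6.61, and after 5 days 7.02, 6.79, 6.74 and 7.92. The day 3 samples were below all day 0 samples, and by day 5 the groups overlapped. The difference at day 3 was −1.05 ± 0.34 (limma adjusted p 0.323), and −1.31 without the library labelled day 3 replicate 2 and day 5 replicate 2 (0.048). At day 5 it was −0.59 ± 0.31 (limma adjusted p 0.377). WNT11, the other ligand tied to gastrulation movements in fish and frog embryos, differed by 0.63 ± 0.36, 0.66 ± 0.36 and 0.50 ± 0.34 at days 1, 3 and 5 (limma adjusted p 0.529 or more).

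WNT2B had the widest spread of the ligands within day 3, and its values were singled out after they were seen. At day 3 it was at 8.54, 5.16 and 8.52 and at day 5 at 7.50, 5.19, 7.28 and 7.37, where replicate 2 was the low sample both times. Day 0 ran from 5.19 to 6.74 and day 1 from 3.56 to 5.53. With all samples the difference of day 3 from day 0 was 1.39 ± 0.85 (limma adjusted p 0.729). Without the library labelled day 3 replicate 2 it was 2.51 and did not pass (limma adjusted p 0.0985). It passed only when day 5 replicate 2 was left out as well (0.0267). These 2 low samples were left out together after the data were seen, so that pass is no independent support for a change in WNT2B. The difference of day 5 from day 1 was 2.01 ± 0.85 with all samples (limma adjusted p 0.284), did not pass without the library labelled day 3 replicate 2 (0.0972), and was 2.56 without both (0.0139).

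The remaining 14 ligands gave no call in any contrast with all samples or without the library labelled day 3 replicate 2. At day 5 the ligand differences from day 0 ran from −0.59 for WNT5A to 1.26 for WNT5B, and 15 of 19 were above 0, beside 8943 of 18495 rows. WNT5B, a dim row, spread from 1.65 to 5.68 at day 0, and its difference had an SE of 0.73 (limma adjusted p 0.435). Without replicate 2 of days 3 and 5, the differences of WNT1 and WNT10B turned from 0.34 and 0.16 to −0.17 and −0.42. WNT8A, an early streak ligand in mouse and chick, reached 7.57 in day 1 replicate 2 but stood at 5.60 and 4.67 in the other day 1 samples. Its difference of day 5 minus day 1 was −1.57 ± 0.74 (limma adjusted p 0.357). WNT3A, a beta-catenin ligand like WNT3, differed from day 0 by 0.38, 0.30 and −0.03 at days 1, 3 and 5 (limma adjusted p 0.91 or more). WNT3A and WNT9A are near neighbours on chromosome 1, as are WNT6 and WNT10A on chromosome 2 and WNT10B and WNT1 on chromosome 12.

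The library labelled day 3 replicate 2 was the highest of 14 samples for 9 of the 19 ligands (47.4%), and for 20.3% of all rows. Its WNT10B stood at 9.38, with 7.03 and 7.16 in the other day 3 samples, and its WNT1 stood at 8.61, with 6.56 and 6.19. Day 5 replicate 2 was high for the same pair, at 9.51 for WNT10B and 8.42 for WNT1, above the other day 5 samples. Without the library labelled day 3 replicate 2 the median ligand difference at day 3 was 0.22, and 0.49 with it. What sets these 2 samples apart was not tested.

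While 0 of the 19 ligands passed the test at day 5, several genes that act around the receptors did. WLS, the carrier that takes WNTs to the cell surface, stood at 7.58, 7.29, 8.08 and 7.60 on day 0 and at 8.35, 8.68 and 8.88 after 1 day. After 3 days the values were 10.84, 7.70 and 9.96, and after 5 days 11.60, 10.91, 11.64 and 11.51. Its day 1 and day 5 samples all lay above day 0. WLS rose by 3.78 ± 0.51 at day 5 (limma adjusted p 0.001). Of the 9 measured genes listed under WNT secretion, 2 rose at day 5 and 0 fell. The other was NOTUM, by 3.35 ± 0.69 (0.0128), which is not part of secretion itself but a secreted enzyme that strips the WNT lipid. The counts of this and the following lists are beside 2.56% of all rows called higher and 2.89% called lower at day 5.

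Of 14 partners of the receptors, 3 rose at day 5 and 0 fell. LGR5, a receptor for R-spondins that stabilise Frizzled at the membrane, was at 10.38, 9.32, 11.22 and 11.03 at day 5 and at 4.58, 4.72, 5.02 and 4.42 at day 0, with no overlap (limma adjusted p 0.000796). The R-spondin gene RSPO3 rose by 2.40 ± 0.31 (limma adjusted p 0.000847). TSPAN12, which works with FZD4 in retinal vessels, rose by 1.43 ± 0.28 (0.0095), with 11.23, 11.70, 10.89 and 10.66 at day 5 and 9.70, 9.46, 10.21 and 9.39 at day 0.

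Of 27 measured genes of the beta-catenin branch, 0 passed at day 5 in limma, with 2 at an unadjusted p under 0.05. CTNNB1, which encodes beta-catenin, differed by −0.17 ± 0.32 and LEF1 by −0.16 ± 0.33 (limma adjusted p 0.848 and 0.859). TLE2, a co-repressor, had the largest difference, 1.36 ± 0.40 (limma adjusted p 0.074, and 0.00298 without the library labelled day 3 replicate 2). Of 19 planar polarity and non-canonical genes, 2 rose and 1 fell. CAMK2D, a kinase of the calcium branch, rose by 1.41 ± 0.32 (0.0202), the actin regulator DAAM1 rose by 1.27 ± 0.30 (0.0249), and the polarity cadherin CELSR2 fell by 1.38 ± 0.36 (0.0443). CAMK2D samples were 10.39, 10.37, 10.74 and 10.71 at day 5 and 7.94, 7.96 and 7.92 at day 1, a rise of 2.61 ± 0.34 (0.00193).

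Secreted inhibitors held 4 rises and 1 fall among 16 measured genes, and WNT target genes 4 rises and 0 falls among 20, with DKK1 and NOTUM in both lists and LGR5 and NOTUM also in those above. FRZB, a decoy with a Frizzled-like domain, was at 10.70, 10.43, 11.04 and 10.33 at day 5 and at 6.33, 6.56, 6.86 and 5.40 at day 0, and rose by 4.34 ± 0.56 (limma adjusted p 0.000802). DKK1, which blocks LRP5 and LRP6, was at 10.81, 9.94, 9.29 and 9.07 at day 5 and at 4.34, 3.63, 3.23 and 3.62 at day 0 (limma adjusted p 0.00112). Both inhibitors were far above their day 0 range in every day 5 sample. CER1, a nodal, BMP and WNT binder in frog embryos, rose by 2.98 ± 0.62 (0.0131). SFRP2, from the same decoy family as FRZB, went the other way, at 9.70, 9.27, 9.72 and 10.06 at day 5 and 12.26, 11.66, 11.54 and 11.61 at day 0. It fell by 2.08 ± 0.26 (0.000725). TNFRSF19, a beta-catenin target in the embryo, rose by 1.82 ± 0.39 (0.0159), while AXIN2, the most used WNT target, differed by 0.50 ± 0.53 (0.714). At days 1 and 3 no gene of the 6 lists passed with all samples. At an unadjusted p under 0.05 the secreted inhibitors had 5 of 16 genes at day 1 and 7 at day 3. The target genes had 6 and 5 of 20, and the receptor partners 2 and 5 of 14. The planar polarity and non-canonical genes had 4 and 2 of 19, the secretion genes 1 and 2 of 9. The beta-catenin branch had 0 of 27 on both days. These counts are beside 6.03% of all rows at day 1 and 8.56% at day 3. Without the library labelled day 3 replicate 2, the secreted inhibitors had 5 rises and 1 fall at day 3 and the target genes 5 rises and 0 falls, and each of these lists had 2 rises at day 1, beside 3.19% of all rows called at day 3 and 0.249% at day 1. The planar polarity and non-canonical genes then had 4 rises and 2 falls at day 5, beside 8.73% of all rows.

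**Figure D4:**
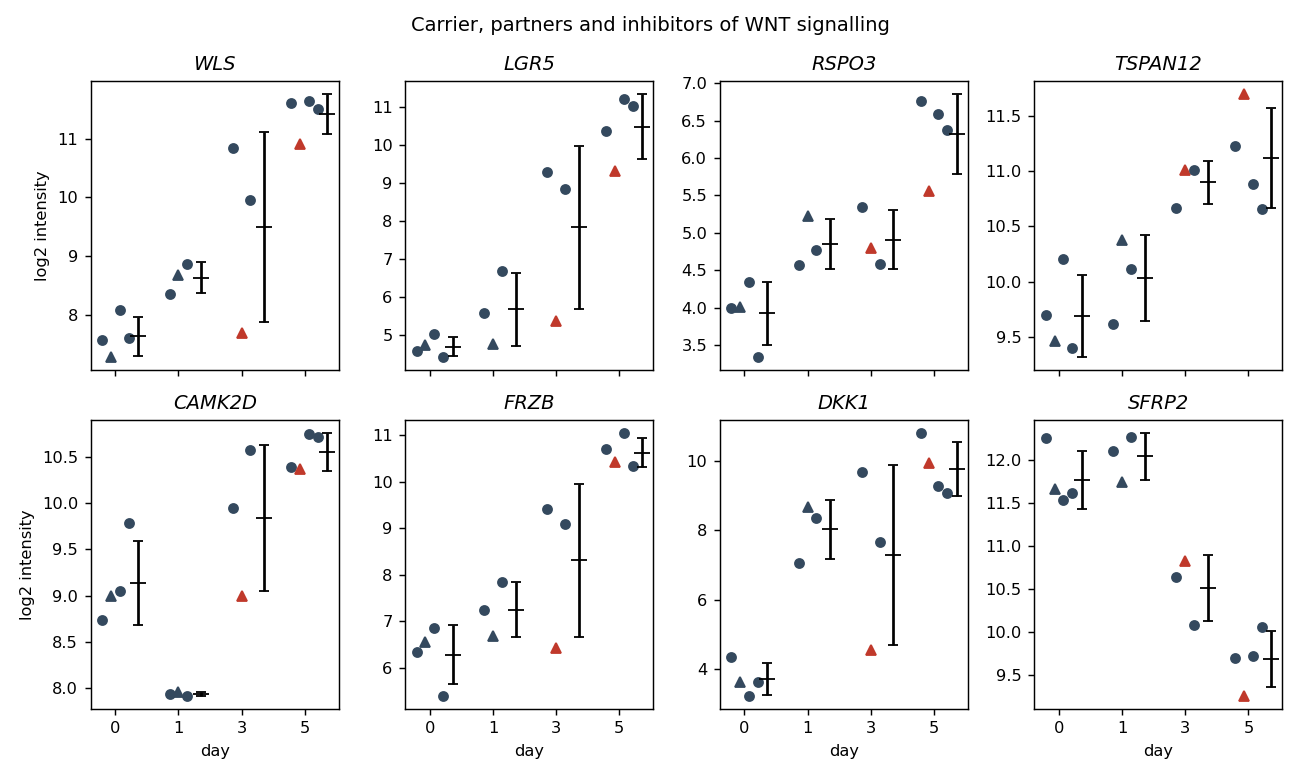
Log2 intensity in each biological sample by day for 8 genes around the receptors, with triangles for replicate 2 (red at days 3 and 5) and a bar for the mean with its SD. WLS, LGR5, RSPO3, TSPAN12, CAMK2D, FRZB and DKK1 are higher and SFRP2 lower in every day 5 sample than in every day 0 sample.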

How the data were processed

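RNA of 14 biological samples had been hybridised to 16 exon arrays, and replicate 4 of day 0 and of day 5 was on 2 technical arrays each, per the labels. The authors deposited 1 linear intensity per gene and array, from −0.273 to 30307.1. Build hg18 is named per the submitters' processing notes. For summarisation and normalization, tools are not given in the sources used. Array medians between 245.1 and 246.3 look like quantile normalization, inferred from the values alone. Arrays have no read depth, so their number limits the precision.

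Values were taken to log2(intensity + 1), so folds of dim rows are understated, and technical arrays were averaged. Of 18495 rows, 14577 carried 1 symbol, 2849 several and 1069 none. All entered limma 3.58.1 in R 4.3.3 (lmFit and eBayes, group the single term), 10 residual and 3 prior degrees of freedom and Benjamini-Hochberg adjustment, called at 0.05. The code was tested on simulated data. The members and lists were chosen with earlier results of these data known. Sample values are given for WNT3, FZD5, FZD8, members past a test and the 6 largest changes per contrast without overlap between groups, and WNT2B and WNT8A were added after their values were seen. From each pathway list up to 3 genes past the test are named, and TLE2, CTNNB1, LEF1 and AXIN2 were added after their values were seen. The alternatives were other technical-array handling, quantile normalization, median centring, a pseudocount of 16, leaving out the dimmest 25% of rows, a variance trend with robust eBayes, only the groups compared, the replicate number as a block and each sample left out. Using rows with 1 symbol only, and dropping replicate 2 of both day 3 and day 5, were chosen after seeing the data. Figures used Python 3.11.15, pandas 2.3.3 and matplotlib 3.10.9.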

Additional observations from a re-analysis of the deposited data

Results flagged for a closer look

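In 4 of 74 groups of 4 samples tested, 1 sample lay far from the others by Dixon's criterion, about what chance gives (1 in 20 groups). FZD1 was at 3.25 in day 5 replicate 1 and between 5.12 and 5.44 in the other day 5 samples. WNT16 was at 4.34 in day 0 replicate 1 and between 5.44 and 5.54 in the others. WNT2B was at 5.19 in day 5 replicate 2, the sample with the lowest correlation to its group at day 5, and between 7.28 and 7.5 in the others. WNT6 was at 9.34 in day 0 replicate 3 and between 8.71 and 8.80 in the others. FZD1 and WNT16 are among the 8 members in the dimmest 25% of rows. No call of the report rests on these 4 genes with all samples.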

How the results depend on the processing

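The ROR2 rise at day 5 kept its call under all 20 alternatives. Without day 3 and day 5 replicate 2 the members called were 7 over any day, 1 at day 1, 7 at day 3, 6 at day 5 and 4 for day 5 against day 1. Day 5 gave 4 members with only the groups compared and 4 with the replicate number as a block, where FZD5 (adjusted p 0.0242) and FZD8 (0.0244) joined ROR1 and ROR2. Whether replicate numbers pair the samples is unsettled: of 19 same-numbered pairs 10 deviated together with a correlation over 0.1 (−0.284 to 0.645), not every pair in any contrast tested, but all 3 between days 3 and 1 (0.188 to 0.509). Day 5 against day 1 gave 1 member with 16 arrays and the sample as a random block, a pseudocount of 16, the replicate block, rows with 1 symbol only (FZD4), technical array 1 only, a variance trend, or without the dimmest 25% of rows. With 1 sample dropped at a time, either from the days being compared or the library labelled day 3 replicate 2, the members called ranged from 0 to 3 over any day (all 14 samples), 0 to 0 at day 1, 0 to 1 at day 3, 1 to 4 at day 5 and 0 to 2 for day 5 against day 1. Over all rows these ranges were 0 to 46, 0 to 590, 549 to 1614 and 170 to 1130, with the highest at each without the library labelled day 3 replicate 2. At day 1, 1 row was called, against 14 with the random block, 20 with only the groups compared, 17 with a pseudocount of 16, 0 with the replicate block, 12 with a variance trend, 12 without dim rows and 122 without both samples. At day 3, 5 rows were called, against 8, 0, 8, 1, 1 with a variance trend, 3 with technical array 2 only and 1057 without both. At day 5 the 1009 became 1835 without both. Day 5 against day 1 gave 616, 398 with only the groups compared and 1503 without both. The FZD5 difference at day 3 ranged from −0.0076 (without day 3 replicate 3) to 1.71 (without day 3 replicate 2) as samples were left out, a change of sign. Averaging a gene's rows was run only for FZD5, since the other repeated rows list several symbols. The causes were not tested.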
